A study of Sus scrofa domesticus with 34 samples.

Results

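The respiratory chain is built from subunits encoded in 2 genomes, and the 60 genes described here are its nuclear part. They were chosen by symbol, as subunits of NADH dehydrogenase, succinate dehydrogenase, cytochrome bc1, cytochrome c oxidase and ATP synthase with at least 10 counts in at least 8 of the 34 count files. Of 31907 genes in the files, 15029 carried a symbol and 64 symbols matched. The 60 that passed the count rule comprised 25 genes of complex I, 4 of complex II, 6 of complex III, 14 of complex IV and 11 of complex V. The set does not hold every known subunit, since only genes with a matched symbol could enter. NDUFB7, NDUFS8, NDUFV1 and COX6B2 matched by symbol but fell short, the first of them with 0 counts in every file and the others with at most 3 counts in any file. Just inside the rule were COX7A1, with 10 or more counts in 11 files, NDUFA4L2 in 12, COX4I2 in 15 and NDUFC2 in 24, while the other 56 reached 10 counts in all 34 files.

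Complexes I and II pass electrons from NADH and from succinate to ubiquinone, complex III passes them on to cytochrome c, and complex IV gives them to oxygen. Complexes I, III and IV pump protons, and complex V uses the proton gradient to make ATP. Complex II is encoded by nuclear genes alone, whereas the catalytic core of the others also needs proteins made inside the mitochondrion. Several complex IV subunits exist as a broadly expressed form and a form found mainly in heart and skeletal muscle or in other restricted tissues, so that their ratio is a familiar mark of tissue type. Oxidative phosphorylation is prominent both in skeletal muscle and in neurons.

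The libraries were QuantSeq 3′ mRNA libraries, 1 per pig, all labelled muscle. QuantSeq gives 1 read per captured transcript, taken close to the poly(A) tail, so counts do not scale with transcript length. Levels in CPM (a gene’s counts relative to library size, scaled by the TMM method) were therefore compared between genes. Such a level also depends on whether the annotation reaches the 3′ end of the gene, since reads beyond it are not counted. Per file, 16.4 to 29.9% of reads lay outside annotated features. What part this has in the differences between genes, isoforms and complexes was not tested. The feed held vitamin D as cholecalciferol, as its hydroxylated form 25(OH)D, or as both. Standard cholecalciferol (n = 8, 4 females and 4 castrated males) was 2000 IU per kg in the grower feed and 1500 IU in the finisher feed. Increased cholecalciferol (n = 10, 6 females and 4 castrated males) was 3000 and 2500 IU. The combination (n = 8, 4 and 4) was 2000 and 1500 IU of cholecalciferol with 1000 IU of 25(OH)D in both phases, and the 25(OH)D diet (n = 8, 4 and 4) was 2000 and 1500 IU of 25(OH)D alone. The sources used here give no ages.

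Gene counts per library ranged from 1340442 to 30363640. The libraries of file numbers 30 to 34, 4 of the combination and 1 of 25(OH)D, held 1340442 to 2687728, and diet and depth were therefore partly tied. Muscle markers were present but uneven, with ACTA1 at a median of 1372 CPM, TNNC2 at 820 CPM and CKM at 309 CPM. In the same list MYL1 had 5.79, DES 2.04 and ATP2A1 1.36 CPM. Slow-fibre genes had medians from 0.294 CPM for TNNI1, at 0 in 11 libraries, through 9.33 CPM for TNNT1 to 20.4 CPM for MYL3. Markers of brain cells were also abundant. The 13 neuron genes summed to 4815 to 9468 CPM over libraries, against 1917 to 10208 CPM for 22 muscle genes. These brain lists were uneven too. Among the neuron genes SNAP25 had a median of 1324 CPM, but GAD1 had 16.3 and NRGN 4.24 CPM. The muscle list, also used for the muscle marker level below, holds PVALB and TPM1, with medians of 719 and 341 CPM. Neither is limited to muscle, so part of the muscle sum and level can come from other cells. The 8 tested oligodendrocyte markers summed to 2266 to 12612 CPM and the 8 astrocyte markers to 1918 to 5653 CPM. The tissue label therefore does not describe these libraries fully, and in such bulk samples fewer cells of a type and less RNA per cell cannot be told apart.

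The 60 genes together held 0.832 to 1.43% of gene counts, with a median of 1.00%. The 13 mitochondrially encoded protein genes held 14.2 to 39.7%, with a median of 22.1%. For every complex with a mitochondrially encoded part, transcripts from the mitochondrial genome outnumbered those of the nuclear members listed here. In complex I, the 7 mitochondrial genes held a median of 29.5 times the counts of the 25 nuclear members, with a range of 14.8 to 76.5 over libraries. The median was 24.0 times for complex III, where CYTB stands against 6 nuclear members, 19.7 times for complex IV and 22.2 times for complex V. Its range was wide in complexes I and V, where it ran from 10.53 to 54.8 in the latter, and narrower in complex III (15.9 to 43.8) and complex IV (11.7 to 31.7).

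Within the nuclear set, complex IV took 35.4% of the counts, complex I 24.8%, complex V 24.7%, complex III 10.3% and complex II 4.93%. COX8A, a small membrane subunit of complex IV, had the highest mean level, 679 ± 134 CPM (SD, n = 34). NDUFA4, first assigned to complex I and now to complex IV, followed with 519 ± 140 CPM. In complex V the highest was ATP5ME, subunit e of the membrane part, with 371 ± 93.5 CPM, and ATP5F1A, the alpha subunit of the catalytic head, had 344 ± 72.3 CPM. In complex I, mean levels ran from 6.02 to 241 CPM. NDUFB8 led with 241 ± 40.9 CPM, and among the core subunits NDUFS3 had 154 ± 21.9, NDUFV2 123 ± 27.7 and NDUFS1 59.6 ± 23.4 CPM. In complex III, UQCR11 had 249 ± 46.2 CPM, and the core proteins UQCRC1 and UQCRC2 had 182 ± 24.5 and 84.8 ± 18.2 CPM. Of the 4 complex II subunits, the flavoprotein SDHA was highest with 193 CPM (range 148 to 324), and SDHD, a membrane anchor, lowest with 36.8 ± 12.9 CPM.

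**Figure D1:**
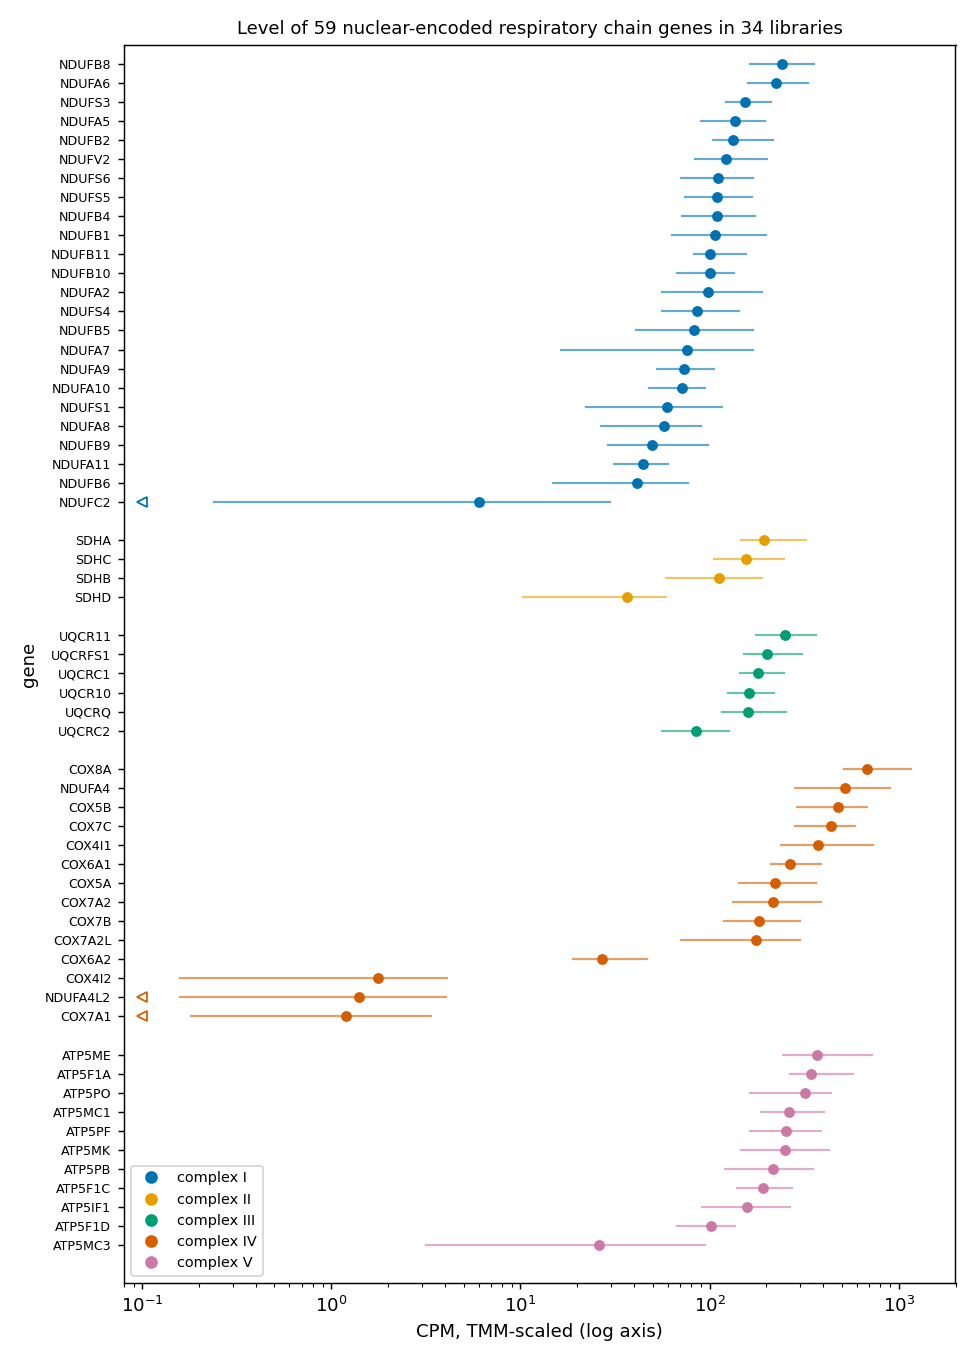
Mean CPM (TMM-scaled, log axis) of 59 of the 60 genes over 34 libraries, with a line from the lowest value above 0 to the highest, coloured by complex. An open triangle at the left edge marks a gene with 0 counts in at least 1 library. Most genes lie near 100 CPM or above, and COX7A1, NDUFA4L2, COX4I2 and NDUFC2 stand far to the left.

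The isoforms of complex IV that mark heart and skeletal muscle were the minor forms in every library. COX6A2 (ENSSSCG00000036789), the muscle form of subunit VIa, lay between 18.9 and 46.6 CPM with a median of 25.0 CPM. Its broadly expressed counterpart COX6A1 lay between 211 and 388 CPM with a median of 257 CPM. COX6A2 made up 9.38% ± 2.37 (SD, n = 34) of the pair, from 5.94 to 17.2%. COX7A1 (ENSSSCG00000037792), the muscle form of subunit VIIa, had a median of 1.04 CPM and at most 3.38 CPM, whereas COX7A2 had a median of 209 CPM. COX7A1 made up 0.575% ± 0.445 of that pair. It had 0 counts in 3 libraries of file numbers 30 to 34, where 3 counts correspond to 1.36 to 2.06 CPM, so a level near its median would not have been detectable there. The ranges of the paired forms did not overlap for either pair.

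Forms of other restricted tissues were also near the bottom. COX4I2, a form of subunit IV known from lung, ranged from 0.159 to 4.08 CPM, and COX4I1 from 240 to 731 CPM. NDUFA4L2, a relative of NDUFA4 known to be induced in low oxygen, ranged from 0 to 4.05 CPM with a median of 1.05 CPM. Both ATP5MC1 and ATP5MC3 encode the same mature c subunit of the ATP synthase ring, and ATP5MC3 made up 8.62% ± 3.69 of their sum, from 1.30 to 22.5%. The minor form was lower than the major one in all 34 libraries for all 5 pairs.

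**Figure D2:**
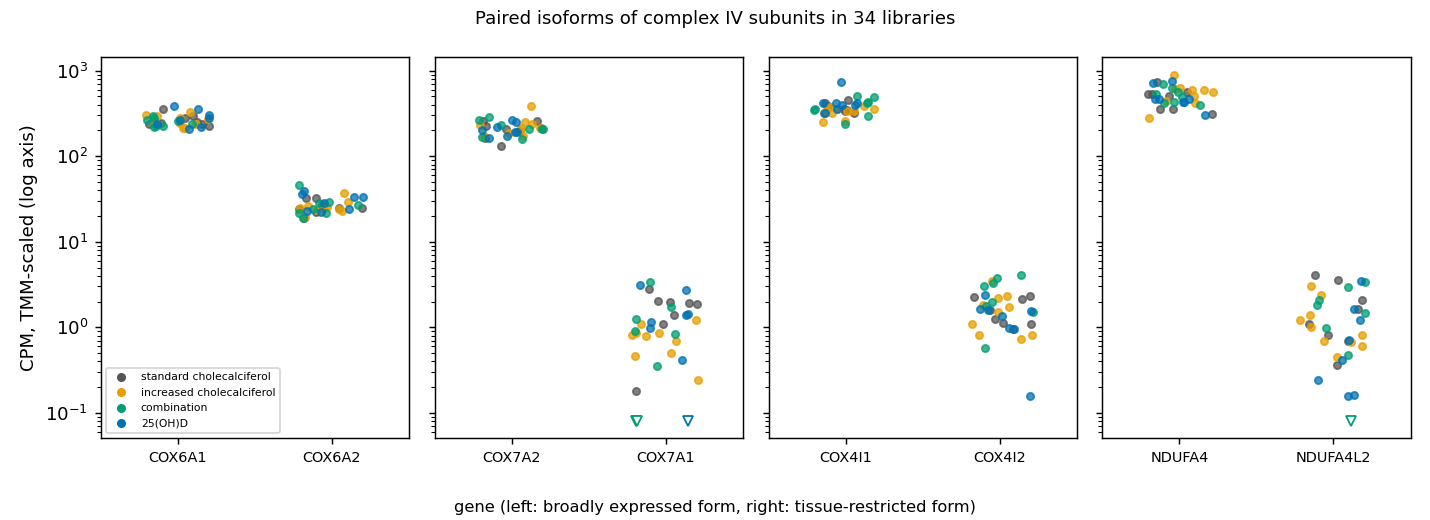
CPM (TMM-scaled, log axis) of 4 pairs of complex IV isoforms, 1 point per library, coloured by diet. The right-hand gene of each pair is the tissue-restricted form, and an open triangle at the bottom marks 0 counts. The 2 clouds of each panel are apart, by the smallest distance for COX6A1 and COX6A2.

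Most members varied little between libraries. The SD of log2 CPM (pseudocount 0.5) had a median of 0.289 over the 60 members, beside 0.483 over all 13974 genes tested. Over genes at a mean of 25 CPM or more it was 0.281 for 56 members and 0.325 for all 5069 genes. The 5 most even members were NDUFB11, UQCRC1, UQCR10, NDUFS3 and NDUFA9, with SDs of 0.187 to 0.205. NDUFC2, a small membrane subunit of complex I, was by far the most uneven, with an SD of 1.41, above 99.8% of tested genes. It was followed by NDUFA4L2 (0.843), ATP5MC3 (0.840), COX7A1 (0.794) and NDUFB6 (0.610), of which NDUFA4L2 and COX7A1 are at levels where counting error is large.

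Many members moved together across libraries. The median Pearson r of log2 CPM over 1770 pairs of members was 0.23, beside 0.01 over pairs of the 5069 genes at 25 CPM or more, and 27.1% of member pairs had an r above 0.5, beside 8.86%. The median was 0.19 within complex I, 0.37 within complex III, 0.03 within complex IV and 0.37 within complex V, so pairs of 1 complex were not all more alike than pairs in general. The closest pairs were NDUFA7 and COX7A2L (r = 0.93), COX7A2 and ATP5MK (r = 0.88) and NDUFS1 and SDHB (r = 0.88), each across 2 complexes. COX4I1 ran the other way, with r = −0.78 against COX7A2L and r = −0.77 against NDUFA7. These values are over the same 34 libraries, share their depth and scaling, and are descriptions without a test.

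The study compared 4 diets, and the summed level of each complex was close to equal in all of them. The sum over the 60 members was 9902 ± 1198 CPM (SD, n = 8) with standard cholecalciferol, 10216 ± 1509 CPM (n = 10) with increased cholecalciferol, 10097 ± 1119 CPM (n = 8) with the combination and 10293 ± 925 CPM (n = 8) with 25(OH)D. Complex I ranged from 2457 to 2545 CPM between diet means, complex III from 1003 to 1076 CPM, complex IV from 3483 to 3665 CPM and complex V from 2410 to 2535 CPM. The widest relative gap between diet means was in complex II, from 479 ± 64.3 CPM with the combination to 521 ± 88.1 CPM with standard cholecalciferol. In all 5 complexes the gap between the highest and lowest diet mean was smaller than the SD within the diets compared, and the ranges overlapped. One library, increased cholecalciferol replicate 7, had the highest total at 13652 CPM.

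**Figure D3:**
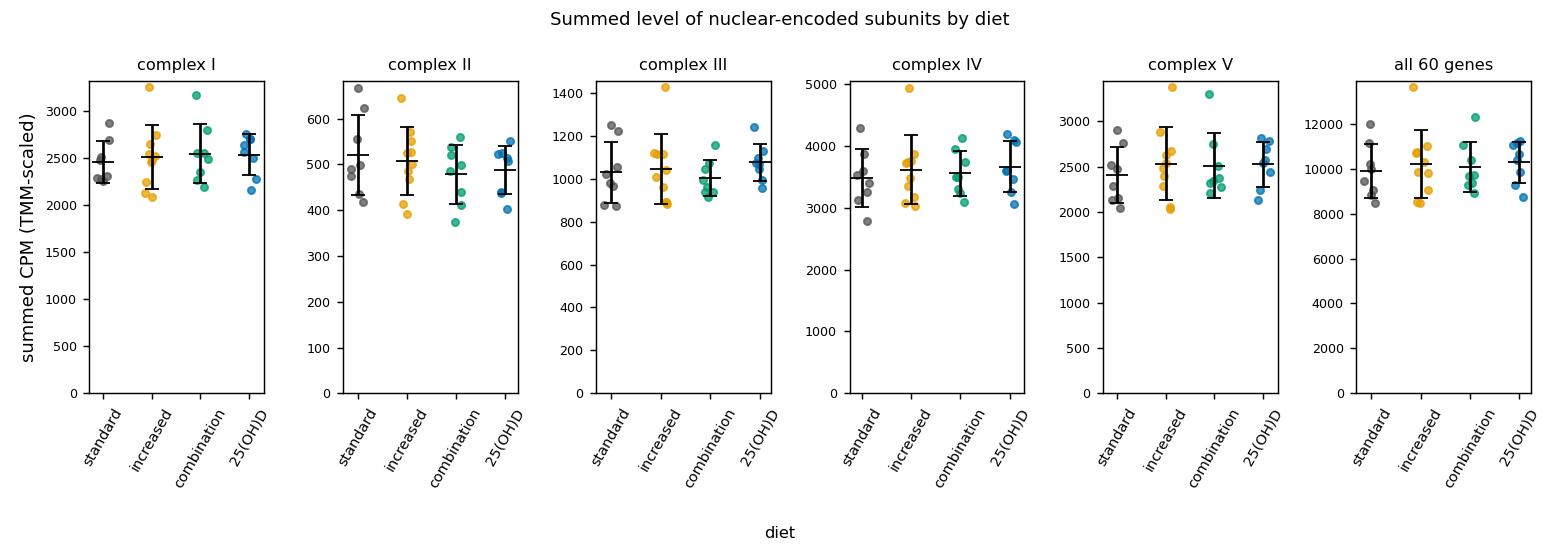
Summed CPM (TMM-scaled) of the nuclear members of complexes I to V and of all 60 genes in each library, by diet, with mean and SD in black. The 4 clouds overlap in every panel, and the increased cholecalciferol library at 13652 CPM lies above the rest for all 60 genes.

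No member passed an adjusted p of 0.05 in any of the 6 diet comparisons, by edgeR's quasi-likelihood test with Benjamini-Hochberg adjustment over 13974 genes. The background was the same: 0% of all genes were called in each. The number of members with an unadjusted p under 0.05 was 3 for increased against standard cholecalciferol, 4 for the combination against standard, 2 for 25(OH)D against standard, 1 for the combination against increased, 10 for 25(OH)D against increased and 5 for 25(OH)D against the combination. The same shares were 5.00, 6.67, 3.33, 1.67, 16.7 and 8.33% of members, beside 7.77, 4.34, 3.23, 4.14, 11.97 and 7.57% of all genes. The comparisons share their libraries and are not independent of each other. DESeq2 and limma-voom also called 0 members in each.

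The size of difference that the data allow was small for most members. The 95% interval lay within a 2-fold change in either direction for 53 to 56 of the 60 members, depending on the comparison, and within a 1.5-fold change for 47 to 52. Median log2 fold changes over the members lay between −0.05 and 0.05 in the 6 comparisons, beside −0.01 to 0.01 over all genes tested. A change within these intervals, or a larger one in the few uneven or rare members, was not excluded by these libraries.

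NDUFC2 (ENSSSCG00000039494) had the smallest unadjusted p of all members, in the comparison of 25(OH)D with the combination. Its lowest, median and highest values were 0.240, 1.22 and 4.39 CPM with 25(OH)D, 2.25, 5.01 and 29.7 CPM with the combination, 1.34, 7.99 and 25.5 CPM with increased cholecalciferol, and 0, 2.88 and 12.3 CPM with standard cholecalciferol. The 25(OH)D libraries thus lay low, but their range overlapped with that of each other diet. The log2 fold change for 25(OH)D against the combination was −2.51 (SE 0.67, unadjusted p = 0.000657, adjusted p = 0.653 by edgeR). Against increased cholecalciferol it was −2.18 (SE 0.64, adjusted p = 0.306), and against standard cholecalciferol −1.44 (SE 0.65, adjusted p = 1.00). Within file numbers 1 to 24, which hold 7 libraries of 25(OH)D and 3 of the combination, the first value was −3.63 (SE 0.75, adjusted p = 0.067), and without file numbers 30 to 34 it was −3.38 (SE 0.74, adjusted p = 0.080).

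SDHD was also low in many 25(OH)D libraries. It ranged from 10.3 to 41.6 CPM with 25(OH)D (median 22.4), from 23.6 to 54.1 CPM with the combination (median 43.6) and from 29.6 to 58.9 CPM with increased cholecalciferol (median 41.3). The 25(OH)D range reached below those of both diets and overlapped with them. Log2 fold changes were −0.66 (SE 0.25) against the combination and −0.67 (SE 0.23) against increased cholecalciferol, with adjusted p of 0.653 and 0.306. Against standard cholecalciferol the SDHD value was −0.55 (SE 0.24, adjusted p = 0.9999 by edgeR). NDUFA7, an accessory subunit of complex I, had −0.67 (SE 0.22, adjusted p = 0.306) against increased cholecalciferol. Higher with 25(OH)D in that comparison, and equally short of the threshold, were ATP5ME at 0.43 (SE 0.14, adjusted p = 0.306), COX4I1 at 0.38 (SE 0.14, adjusted p = 0.311) and NDUFB11 at 0.25 (SE 0.10, adjusted p = 0.336). One library, 25(OH)D replicate 3, had the highest COX4I1 (731 CPM) and ATP5ME (721 CPM) of all 34, and the lowest SDHD.

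The remaining named values also missed the threshold. NDUFV2, which carries an iron-sulfur cluster of complex I, ranged from 103 to 200.9 CPM with the combination and from 97.4 to 131 CPM with increased cholecalciferol, with a log2 fold change of 0.37 (SE 0.13, adjusted p = 0.931). Without file numbers 30 to 34 that value was 0.01. In the same comparison NDUFB8 had 0.20 and COX4I2 0.64, and NDUFB5 had −0.32, NDUFA7 −0.31 and SDHB −0.25, all with an adjusted p of 0.931. Against standard cholecalciferol, the combination gave 0.37 for NDUFV2, 0.29 for ATP5MC1 and 0.27 for NDUFB8, and −0.74 for COX7A1, −0.23 for COX8A and −0.19 for ATP5ME (adjusted p = 0.999). The muscle marker level, a mean log2 CPM, was 5.46 ± 0.508 (SD, n = 8) with the combination, 5.24 ± 0.354 (n = 10) with increased cholecalciferol, 5.15 ± 0.627 (n = 8) with 25(OH)D and 4.82 ± 0.42 (n = 8) with standard cholecalciferol. With that level in the model, the values for the combination against standard cholecalciferol were 0.08 for NDUFV2, 0.10 for ATP5MC1 and 0.06 for NDUFB8, and 0 members had an unadjusted p under 0.05. Increased against standard cholecalciferol gave 0.52 for NDUFA7, 0.33 for COX7A2L and 0.23 for ATP5MC1, and −1.10 for COX7A1, −0.31 for ATP5ME and −0.22 for NDUFB10 (adjusted p of 0.623 to 0.640). COX7A1 there ranged from 0.244 to 1.21 CPM with increased and from 0.181 to 2.83 CPM with standard cholecalciferol. For 25(OH)D against the combination, ATP5MC3 had −0.84, ATP5ME 0.32, COX8A 0.25 and ATP5F1D 0.22 (adjusted p of 0.653 to 0.682 by edgeR). For 25(OH)D against standard cholecalciferol, the rare NDUFA4L2 had −1.14 (SE 0.57), NDUFB8 and NDUFV2 0.24 each and COX4I1 0.23 (adjusted p = 0.9999).

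Females and castrated males did not differ in any member past the threshold, and no diet difference was called as unequal between the sexes. With 18 females and 16 castrated males, 0 of 60 members were called for sex, beside 0.0787% of all genes, and 0 for the interaction, beside 0%. At an unadjusted p under 0.05 the counts were 10, or 16.7% of members beside 6.58% of all genes, and 1, NDUFS1, beside 384 of 13974 genes. Most members were slightly higher in females without passing the test: 53 of 60 had a log2 difference (female minus castrated male) above 0, beside 51.2% of all genes, and the median was 0.10, beside 0.00. Examples are NDUFB6 at 0.44 (SE 0.18), NDUFA4 at 0.31 (SE 0.12) and ATP5PO, which joins the head of ATP synthase to its stalk, at 0.23 (SE 0.08), with adjusted p of 0.693, 0.685 and 0.678. These examples were taken by their unadjusted p after the values were seen. The size of the median varied with the model. With the share of reads outside annotated features in it, the median was 0.05, and 2 members had an unadjusted p under 0.05. When the model told apart file numbers 1 to 24, 25 to 29 and 30 to 34, the median was 0.14, with 22 such members. Without file numbers 30 to 34 it was 0.15, with 17, and within 1 to 24 it was 0.18, with 13. No member passed the threshold in these fits. Sex was uneven over these sets of files, with females in 13 of 24, 1 of 5 and 4 of 5 libraries.

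The rule also asked how the nuclear members stand against the mitochondrially encoded transcripts. The slope of each gene was fitted on the log2 ratio of mitochondrially encoded to other counts, with diet and sex in the model and library sizes that leave the mitochondrial genes out. Of the 60 members, 13 rose with this ratio and 1 fell, beside 15.5 and 15.0% of 13826 genes. These counts are 21.7 and 1.67% of the members. The median slope was 0.10 over the members, beside 0.00 over all genes, for each doubling of the ratio. Complex III stood highest, with 3 of 6 members called and a median of 0.21, followed by complex IV with 4 of 14 and 0.19, and complex II with 1 of 4 and 0.16. Complex I had 3 of 25 and 0.09, and complex V had 2 of 11 higher, 1 lower and 0.01.

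The members that rose were, apart from the catalytic SDHA, accessory or structural subunits, and their slopes were well below the value of 1 that a change in equal proportion would give. UQCR11, a small subunit of complex III, ranged from 177 to 364 CPM with a median of 241 CPM, and had a slope of 0.44 (SE 0.09, adjusted p = 0.000356 by edgeR). NDUFA2 of complex I had 0.46 (SE 0.14, adjusted p = 0.011). ATP5PF, coupling factor 6 of the ATP synthase stalk, and ATP5ME had 0.42 and 0.41 (SE 0.10 each, adjusted p = 0.001 and 0.003). UQCRQ had 0.39 (SE 0.09, adjusted p = 0.001). ATP5MC3 fell, with −0.81 (SE 0.27, adjusted p = 0.021). The adjusted p was 0.092 within file numbers 1 to 24. The call was also lost without 25(OH)D replicate 3, the library with the lowest ATP5MC3 (3.15 CPM) and the highest mitochondrial share (39.7%).

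The mitochondrial ratio moved with brain-region markers. The mean level of 15 cerebellum genes minus that of 12 forebrain genes had a Spearman correlation of −0.81 with the mitochondrial ratio over the 34 libraries. With that difference in the model, 7 members were called, all higher, beside 2.08% of genes, and the median slope of the members was 0.16, with 19 members at an unadjusted p under 0.05 against 21 without the term. Of these, ATP5ME, COX6A1, COX8A, SDHA and UQCRQ were also among the 14. Within file numbers 1 to 24, 6 members were called, all higher, beside 7.26%. What part the region of origin has in the slopes was not tested.

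Fitted on the cerebellum minus forebrain difference itself, 1 member was higher and 9 were lower, beside 19.4 and 18.6% of 13974 genes. NDUFA4L2 had the positive slope, 0.33 per log2 unit (SE 0.10, adjusted p = 0.009). The lower ones were led by NDUFA2 at −0.14, UQCR11 at −0.09, COX7A2 and COX5B at −0.08 and NDUFA11 at −0.08 (adjusted p of 0.000335 to 0.026) in log2 change per unit. The direction depended on the model. With the mitochondrial ratio as a further term, 4 members were higher and 3 lower, beside 1592 and 1697 of 13974 genes. The calls of UQCR11, COX5B and COX7A2 were lost there. With the share of reads outside annotated features instead, 8 were higher and 6 lower, beside 2701 and 2629 genes. The median slope of the members was 0.01 and 0.02 in these 2 fits. Without TMM, 22 members were higher and 1 was lower, beside 37.3 and 11.1% of genes. This change of scaling shifted members and other genes alike: the median slope went from −0.02 to 0.05 over the members and from 0.00 to 0.07 over all genes.

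Muscle marker level separated few members. On the mean log2 CPM of 23 muscle genes, NDUFV2 and NDUFB8 rose and ATP5PF fell, 2 and 1 of 60 beside 0.859 and 0.0716% of genes. NDUFV2 had a slope of 0.43 (SE 0.08, adjusted p = 0.001), NDUFB8 0.30 (SE 0.07, adjusted p = 0.031) and ATP5PF −0.37 (SE 0.09, adjusted p = 0.036). The muscle isoforms were not called: COX6A2 had 0.22 (SE 0.12, adjusted p = 0.462) and COX7A1 0.34 (SE 0.38, adjusted p = 0.763). The 5 shallow libraries of file numbers 30 to 34 had muscle levels of 5.61 to 6.08, in the upper part of the range of 4.15 to 6.10. With a term for runs of file numbers, 0 members were called, beside 0.501% of genes higher, and the slopes of NDUFV2 and NDUFB8 were 0.32 (SE 0.09, adjusted p = 0.129) and 0.23 (SE 0.09, adjusted p = 0.269). Without TMM, 6 members were called, all higher, beside 1.37%.

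Many members were called on the share of reads that the authors' counting placed in no gene. Between 16.4 and 29.9% of the reads in a file lay outside annotated features. Fitted on this share, a fit added after the data were seen, 23 of 60 members fell and 0 rose, beside 5.70% of genes lower and 6.95% higher. In all, 50 of 60 slopes were below 0, beside 49.5% of all genes, with a median of −0.29 for each 10 percentage points, beside 0.01. By complex, 9 of 25 members of complex I fell, 3 of 4 of complex II, 3 of 6 of complex III, 3 of 14 of complex IV and 5 of 11 of complex V. All 11 members of complex V and all 4 of complex II had a slope below 0.

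NDUFA4 (ENSSSCG00000024313) gave the clearest case. It ranged from 282 to 902 CPM with a median of 506 CPM, and both the lowest and the highest value came from libraries of increased cholecalciferol. The lowest was in a library with 27.7% of reads outside features and the highest in one with 17.4%. Its slope was −0.79 (SE 0.13, adjusted p = 0.000531). NDUFS1, the largest core subunit of complex I, ranged from 22.2 to 116 CPM with a slope of −1.01 (SE 0.20, adjusted p = 0.002). NDUFB6 and NDUFB5 had −0.98 (SE 0.22) and −0.89 (SE 0.20), both with an adjusted p of 0.004, and NDUFC2 had −2.22 (SE 0.59, adjusted p = 0.013). SDHD had −0.73 (SE 0.23, adjusted p = 0.033). COX4I1 had a slope of 0.20 (SE 0.15, adjusted p = 0.394) and was not called. The calls of NDUFA4, NDUFS1, NDUFB5, NDUFB6 and NDUFC2 were lost within file numbers 1 to 24, where fewer libraries entered and NDUFA4 had a slope of −0.75 (SE 0.19, adjusted p = 0.077), and that of NDUFC2 also without file numbers 30 to 34.

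**Figure D4:**
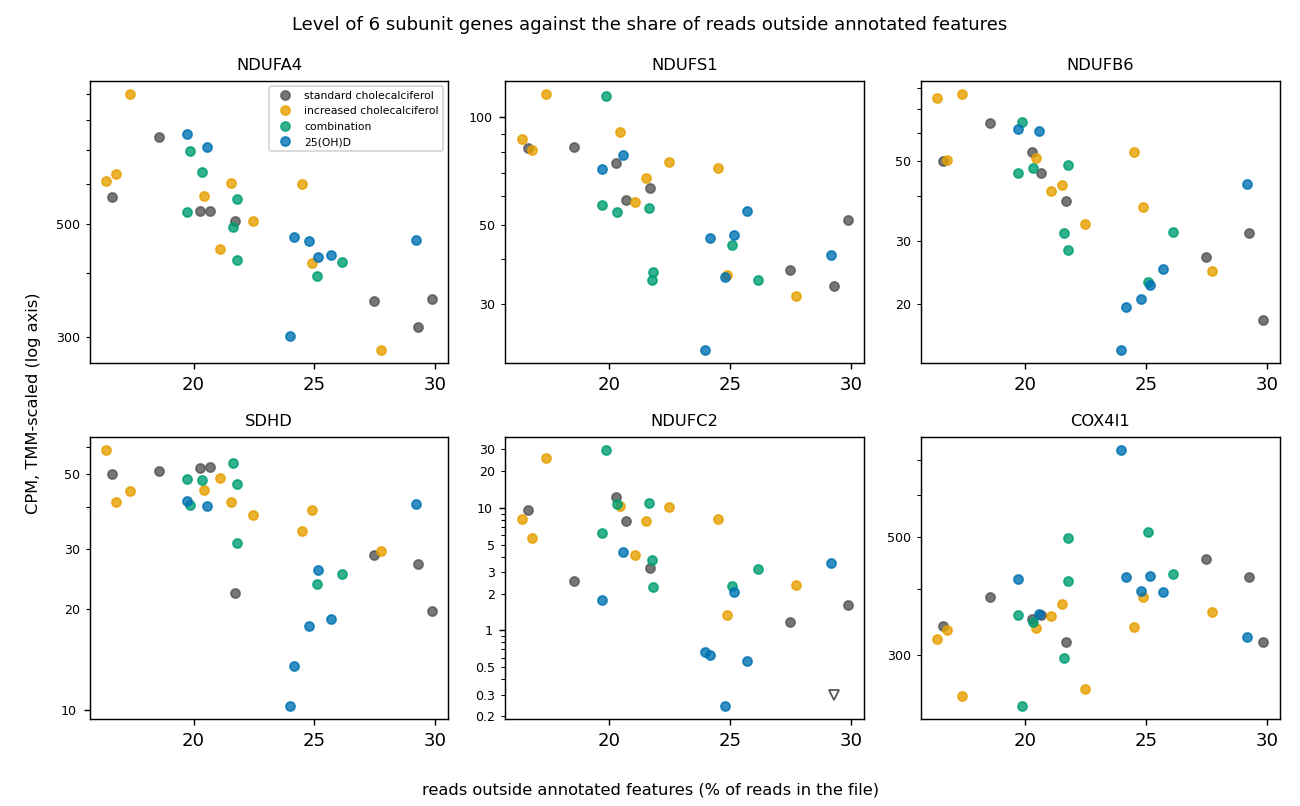
CPM (TMM-scaled, log axis) of 6 members against the percentage of reads outside annotated features, 1 point per library, coloured by diet. NDUFA4, NDUFS1, NDUFB6, SDHD and NDUFC2 tend to be lower where the share is high, and COX4I1 does not. The open triangle marks 0 counts of NDUFC2.

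The share differed somewhat between the diets. It averaged 24.2% ± 2.97 (SD, n = 8) with 25(OH)D, 23.1% ± 5.09 (n = 8) with standard cholecalciferol, 22.0% ± 2.37 (n = 8) with the combination and 21.3% ± 3.75 (n = 10) with increased cholecalciferol, with overlapping ranges. With the share in the model, the log2 fold change of NDUFC2 for 25(OH)D against the combination was −1.75 (SE 0.62, adjusted p = 0.620), and that of SDHD was −0.45 (SE 0.23, adjusted p = 0.633). The first principal component of the members held 47.1% of their variance and had a Pearson r of −0.72 with the share, −0.36 with the mitochondrial ratio, 0.03 with the muscle level and 0.06 with the regional difference (n = 34, descriptions without a test). Its input, log2 CPM, was centred but not scaled, so uneven members such as NDUFC2 (SD 1.41) weigh most. Of the 60 members, 44 had a loading above 0. Within file numbers 1 to 24, 1 member was called, beside 0.0738% of genes lower, while the median slope of the members was −0.35 and 28 of 60 had an unadjusted p under 0.05, against 30 in all libraries. There the r of the summed level of all members with the share was −0.67, beside −0.64 over all 34 libraries. What sets this share, and its part in the members' levels, was not tested.

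**Figure D5:**
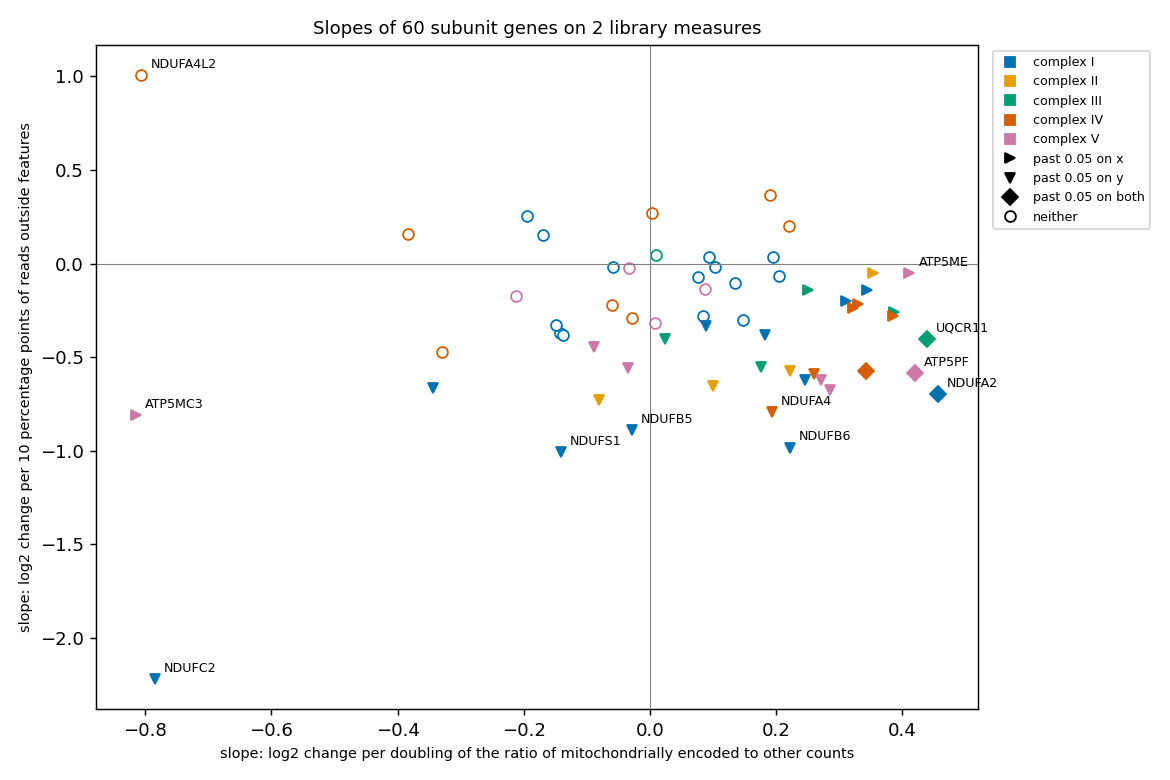
Slope of each member on the mitochondrial ratio (horizontal, log2 change per doubling) and on the share of reads outside features (vertical, log2 change per 10 percentage points), coloured by complex, with filled symbols past an adjusted p of 0.05. Most points lie below 0 on the vertical axis, and 4 of the genes called on the horizontal axis are also called on the vertical one.

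ATP5PF, COX7A2, NDUFA2 and UQCR11 were called on both the mitochondrial ratio and the share of reads outside features, 4 of the 14 called on the first and 4 of the 23 called on the second. ATP5PF was the only member called on all 4 library measures, though not in every alternative. Its call on the muscle level was lost with limma-voom, without TMM, without the low-count filter and with the run term. It was also lost without file numbers 30 to 34, within 1 to 24, and when any of several single libraries was left out. The call of ATP5PF on the mitochondrial ratio was lost with the regional term. Over the 4 fits 37 members were called at least once, and 23 never. The share of all genes called at least once was not computed, so this count has no background. Taken singly, the fits called 30.6% of all genes on the mitochondrial ratio and 38.0% on the regional difference. The shares were 12.7% on the reads outside features and 0.930% on the muscle level.

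Other genes of the pathway gave no call by diet or sex. This held for 40 tested assembly factors, 17 electron carriers and entry points, 17 genes of pyruvate oxidation and the citric acid cycle, and 24 genes of mitochondrial gene expression and biogenesis. On the mitochondrial ratio, on which 30.6% of all genes were called, 8 assembly factors were higher and 2 lower, with CMC1, a chaperone of complex IV assembly, at −0.85 (SE 0.15) and HIGD1A at 0.44 (SE 0.10). On the same ratio, 1 carrier gene and 2 citric acid cycle genes were higher and 1 of each list lower. In the biogenesis list 2 were higher and 4 lower, among them the mitochondrial RNA polymerase POLRMT at −0.49 (SE 0.14), the transcription factor TFAM at −0.53 (SE 0.17) and GABPA, which activates many respiratory genes, at −0.61 (SE 0.18). On the regional difference, with 38.0% of all genes called, 3 assembly factors were higher and 3 lower. In the biogenesis list 3 were higher and 2 lower on it. CMC1 had 0.23 (SE 0.04) and POLRMT 0.19 (SE 0.03) there. What part region has in the slopes of these genes on the ratio was not tested. On the share of reads outside features, with 12.7% of all genes called, 3 assembly factors were lower and 1 higher, and 4 citric acid cycle genes were lower, among them MDH2, malate dehydrogenase of the mitochondrial matrix, at −0.68 (SE 0.17).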

How the data were processed

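Each of the 34 deposited files held whole-number counts of reads per Ensembl gene for 1 pig, which the authors made with FastQC, TopHat and HTSeq, per the submitters' processing notes. The notes also name DESeq2. Genome build, annotation release and strand setting are not stated in the sources used here, so reads of overlapping genes cannot be separated by strand. Per file, HTSeq placed 16.4 to 29.9% of reads in no feature, 3.63 to 4.68% in more than 1 feature and 11.2 to 20.7% at several positions, which removes reads that near-identical copies share. These lines stayed out of library sizes and tests. Symbols matched 15029 of 31907 gene IDs.

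Counts were fitted with edgeR 4.0.16 in R 4.3.3 (limma 3.58.1, DESeq2 1.42.0 as alternatives): TMM scaling, filterByExpr by diet (13974 genes kept, all 60 members among them), a quasi-likelihood test with diet and sex in the model, and Benjamini-Hochberg adjustment over all genes tested at 0.05. Library measures entered as further terms: the log2 ratio of the 13 mitochondrially encoded protein genes to all other counts, the mean log2 CPM of muscle markers, that of cerebellum minus forebrain markers, and, added after the data were seen, the share of reads outside features per 10 percentage points. The fitting steps were also run on simulated counts with seeded changes. Those counts lacked the differences between these libraries in region, run and reads outside features, so they do not test the calls given here. Members named were those past the threshold by diet or sex, the 3 per direction with the smallest p in each diet comparison, the 5 per direction with the largest slope among those past the threshold in each further fit, isoforms and core subunits, and the extremes of level and spread; any other is given as a value only. The values of 1 member are not reported here. The members and lists were chosen with earlier results of these data known.

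The labels count pigs per diet, 1 library each, and p-values measure the spread between these libraries. Runs of file numbers (1 to 24, 25 to 29 and 30 to 34) differ in depth, and no batch is labelled. Alternatives were DESeq2, limma-voom, no TMM, no filter, mitochondrial genes switched in library sizes, no sex term, a term for the 3 runs, file subsets, leaving out each library and, added after the data were seen, each library measure as a further term.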

Additional observations from a re-analysis of the deposited data

Results flagged for a closer look

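Increased cholecalciferol replicate 7 stood above the other 9 libraries of its diet in 3 sums. Complex III summed to 1428 CPM there, and the next library had 1121 CPM. Complex IV summed to 4942 CPM against 3872 CPM in the next library, and all 60 members to 13652 CPM against 11036 CPM. The gap to the nearest library, divided by the range of the diet, was 0.561, 0.560 and 0.504, past the 95% limit of Dixon's test for 10 samples. The 3 sums overlap in their members and come from 1 library. Of 32 groups examined 3 passed, and chance passes about 1 in 20. That library had 17.4% of reads outside annotated features, near the low end of all libraries, and the part of that share in its sums was not tested.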

How the results depend on the processing

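No member was called in a diet, sex or interaction fit under any alternative run, leaving out each library included. The count of members called on the mitochondrial ratio, 14, was 6 within file numbers 1 to 24 and 7 with the regional term. Over all genes, 4225 of 13826 became 2546 of 14746 and 599 of 13826. On the muscle level 3 members became 5 with DESeq2, 6 without TMM and 1 without the low-count filter. Over all genes, 130 of 13974 became 188 of 13974, 192 of 13974 and 132 of 25695. The members were 0 with the run term, without file numbers 30 to 34 and within 1 to 24, beside 87 of 13974, 74 of 14804 and 38 of 14915 genes. Leaving out 1 library gave 1 to 5 members. There was 1 without 25(OH)D replicate 1, increased cholecalciferol replicate 6 or combination replicate 4, 6 or 8, and 5 without standard cholecalciferol replicate 1. On the regional difference 10 members became 23 without TMM and 2 within file numbers 1 to 24. Over all genes, 5316 of 13974 became 6761 of 13974 and 4422 of 14915. On the share of reads outside features 23 members became 12 without TMM, 12 without file numbers 30 to 34 and 1 within 1 to 24, all lower. Over all genes, those called lower went from 797 of 13974 to 259 of 13974, 164 of 14804 and 11 of 14915. The cause of these changes was not tested, though the file subsets also hold fewer libraries. Without TMM the median over all genes shifted to 0.13 for the muscle level, 0.16 for the share of reads outside features, −0.12 for 25(OH)D against the combination and −0.11 for 25(OH)D against increased cholecalciferol.

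Uncalled values that changed sign all involved the combination, which holds 4 of the 5 shallow libraries. Against increased cholecalciferol, the values without file numbers 30 to 34 and within 1 to 24 were 0.0929 and 0.213 for NDUFA7, 0.0668 and 0.200 for NDUFB5, −0.105 and −0.0900 for NDUFB8, and 0.0552 and 0.145 for SDHB. With the run term NDUFB8 had −0.0400 and SDHB 0.0247. Against standard cholecalciferol NDUFB8 had −0.0323 and −0.00637. Of 20 called values of named members, 2 kept their call in every alternative and 0 changed sign, and 0 of 36 uncalled values passed the threshold. Depth limits COX7A1, NDUFA4L2, COX4I2 and NDUFC2. No paired analysis was possible because the replicate numbers only follow the order of deposit.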
